A study of Mus musculus with 11 samples.

Results

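The Gli2 viewpoint is the pair of neighbouring 10 kb bins that hold the upstream end of Gli2 on mouse chromosome 1, at positions 120940001 to 120960000 of build mm9. No gene table of that build was used, so which of the bins holds the start itself was not determined. It was followed in capture Hi-C maps of 3 embryonic tissues and 1 mutant. Its members were all bin pairs with at least one bin starting at 120940001 (the first viewpoint bin) or 120950001 (the second). That gave 839 of the 88410 bin pairs of each map, from 2 of 420 bins. Of these, 9 joined bins less than 30 kb apart, 341 lay 30 kb to 1 Mb apart and 489 lay farther apart. The members without a single contact numbered 15 in wild-type forelimb, 7 in the forebrain, 14 in the midhindbrain boundary and 15 in stop-cassette forelimb, and none of them lay within 1 Mb.

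The maps came from embryos at embryonic day 9.5 by the stage label, although the shared dissection protocol also mentions a later stage. Wild-type forelimb, wild-type Forebrain and wild-type Midhindbrain Boundary were each represented by 3 libraries, and forelimb of the genotype Mutant (Stop Cassette Insertion) by 2. All 11 libraries carried the strain label c57bl6.J X 129S6.sv. Wild-type forelimb was also tagged CD1 in its 3 titles and came from a library series with lower numbers, so the strain tag and the library series cannot be told apart from that map. The labels do not state the position of the cassette, named 3xpA in the titles, or how many embryos were pooled. The authors merged the libraries of a group into 1 map, which leaves no replicate error to report. Every interval covers counting error only, at a level of 95%. A test here sets the reads of a pair of merged maps against each other and does not reach the conditions behind them. No expression was measured, so the tissue labels were not checked against marker genes.

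Gli2 encodes a zinc-finger transcription factor of the Hedgehog pathway. It is processed or activated according to the Hedgehog signal that reaches a cell, and serves mainly as an activator of target genes in limb bud and neural tube. Mammalian chromosomes fold into contact domains, and a promoter meets the sequences of its own domain more often than those beyond a boundary, where the architectural protein CTCF is often bound. Capture Hi-C measures such contacts in a chosen region, here the one that also holds En1, the homeobox gene for which the series is named.

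The RefSeq promoter of Gli2 is shown because it is the sequence that the viewpoint stands for. It is given as the 250 bases before the annotated start on the minus strand of GRCm38.p6, a later build than that of the maps, so no position was transferred. Capitals mark a GC box, GGGCGG, at positions 94 to 99 and the letters GGGGGCGCT at positions 146 to 154, counted from 1 at the first base printed.
Gli2 promoter: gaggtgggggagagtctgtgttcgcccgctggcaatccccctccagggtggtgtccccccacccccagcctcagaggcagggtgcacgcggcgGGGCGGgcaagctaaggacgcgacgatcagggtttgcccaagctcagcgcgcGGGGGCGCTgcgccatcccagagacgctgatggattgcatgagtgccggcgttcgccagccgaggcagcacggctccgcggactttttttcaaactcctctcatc
The sequence held 22 CpG dinucleotides and 67.2% G and C. Among 32851 RefSeq mouse promoters of the same length the median was 6 CpG dinucleotides, and 14.8% held as many as Gli2 or more. The GC box, the letters bound by Sp-family factors, occurred in 32.7% of these promoters on either strand. The letters GGGGGCGCT, taken from the core of the CTCF motif, occurred in 0.661%, and both together in 0.399%. The motifs were chosen after the sequence was seen, they do not overlap, and a match is a description of the letters, not of bound protein.

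Raw contacts in the deposited maps numbered 8823849 (wild-type forelimb), 9489482 (forebrain), 9523316 (midhindbrain boundary) and 7662227 (stop-cassette forelimb). The first viewpoint bin took part in 58244, 61682, 60518 and 47672 of them, in the same order of maps. This ranked it 393rd, 399th, 394th and 391st of 420 bins from the lowest. The second viewpoint bin took part in 42737, 47867, 47518 and 37515 contacts, ranks 255, 299, 297 and 287. Both bins were thus well covered in every map, and the stop-cassette map was the shallowest at both.

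Levels below are observed contacts over those expected, where the expected number is the mean balanced (Knight-Ruiz, KR) signal of all bin pairs at the same distance in the same map, scaled back by the balancing factors of both bins. A value of 1 is the average contact at that distance. Since Gli2 lies on the minus strand, lower positions are its gene body side and higher positions its upstream side. In RefSeq gene order Tfcp2l1, a transcription factor gene, follows on the gene body side. On the upstream side come Inhbb, which encodes an inhibin and activin subunit, and Ralb, which encodes a small GTPase. En1 is protein-coding gene number 15 upstream of Gli2 in that order.

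Contacts of the Gli2 viewpoint leaned strongly to the gene body side in all 4 maps. Between 30 and 700 kb, wild-type forelimb held 39379 contacts on the gene body side and 19289 upstream. The counts were 40012 and 20390 in forebrain, 37694 and 21507 in the midhindbrain boundary, and 27640 and 16158 in the stop-cassette forelimb. The share on the gene body side was 67.1% (Wilson interval 66.7 to 67.5) in wild-type forelimb and 66.2% (65.9 to 66.6) in the forebrain. It was 63.7% (63.3 to 64.1) in the midhindbrain boundary and 63.1% (62.7 to 63.6) in stop-cassette forelimb. Wild-type forelimb and forebrain were thus the high pair, and midhindbrain boundary and stop-cassette forelimb the low pair.

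Relative to distance, the gene body side stood at 1.31 in wild-type forelimb, 1.31 in the forebrain, 1.26 in the midhindbrain boundary and 1.251 in the stop-cassette forelimb. The upstream side stood at 0.649, 0.672, 0.731 and 0.720. The ratio of the sides was 2.02, 1.95, 1.72 and 1.74. When every 20 kb row of the region with both sides in the map was measured the same way, this ratio ranked 3rd, 4th, 8th and 4th from the highest of 140 rows. Within 300 kb it ranked 1st in wild-type forelimb, forebrain and stop-cassette forelimb, and 2nd in midhindbrain boundary. At 100 to 700 kb it ranked 9th, 19th, 24th and 9th of 140. The second viewpoint bin alone ranked 10th, 21st, 45th and 17th of 280 single bins at 30 to 700 kb. Over the whole viewpoint at 30 to 700 kb, the lean was thus among the strongest of the captured region in each map. It was strongest close to the promoter.

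**Figure D1:**
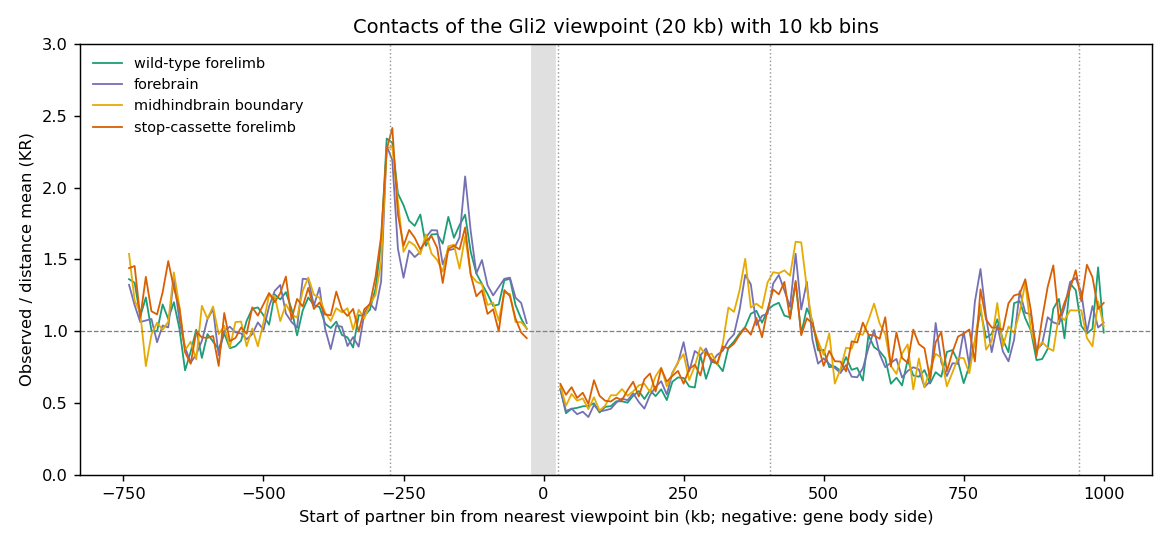
Contacts of the Gli2 viewpoint with single 10 kb bins, as observed over the distance mean of KR signal (vertical axis), against the start of the partner bin from the nearest viewpoint bin in kb (horizontal axis, negative on the gene body side). Each line is 1 merged map, the grey band is the viewpoint with the bins under 30 kb, and dotted lines are insulation minima of the wild-type forelimb map. All 4 lines peak 270 to 280 kb away on the gene body side, at 2.28 to 2.42, fall to 0.402 to 0.493 upstream and rise again about 450 kb upstream.

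The strongest contacts on the gene body side lay beyond Gli2 itself. They fell in the bins starting at 120670001 and 120660001, which are 270 and 280 kb from the first viewpoint bin, while the RefSeq gene spans 220345 bases. With the bin at 120670001, the viewpoint had 763 contacts in wild-type forelimb, 719 in the forebrain, 714 in the midhindbrain boundary and 582 in stop-cassette forelimb. Relative to distance these were 2.31 (interval 2.15 to 2.48), 2.19 (2.03 to 2.36), 2.28 (2.12 to 2.46) and 2.42 (2.22 to 2.62). The 4 intervals overlapped, so the maps did not separate beyond counting error at this bin. The bin at 120660001 gave 2.34, 2.29, 2.27 and 2.27 from 913, 937, 891 and 651 contacts, again without separation of the maps.

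An insulation minimum, a position that few contacts cross, lay at 120670001, between these bins. With a 200 kb square its insulation score was -0.38 (log2 against the map mean) in wild-type forelimb, -0.30 in the forebrain, -0.20 in the midhindbrain boundary and -0.31 in the stop-cassette forelimb. The peak was carried more by the second viewpoint bin. With 120670001 that bin stood at 2.81, 2.80, 2.60 and 2.88 from 390, 396, 352 and 302 contacts, the highest of all 392 bin pairs 280 kb apart in every map. The first viewpoint bin reached 1.95, 1.73, 2.04 and 2.06 with the same partner, ranking 9th, 25th, 6th and 6th of 393 bin pairs at 270 kb. With 120660001 the second bin stood at 2.87, 2.70, 2.74 and 2.56, and the first at 1.96, 1.98, 1.91 and 2.04.

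The third bin by mean level on this side started at 120800001, 140 kb away and within the span of the gene length. It was at 1.81 (1.71 to 1.92) in wild-type forelimb, 2.08 (1.97 to 2.19) in the forebrain, 1.66 (1.56 to 1.76) in the midhindbrain boundary and 1.72 (1.60 to 1.85) in stop-cassette forelimb. Forebrain lay above the other maps here, and its interval did not overlap theirs. Forebrain was highest with either viewpoint bin alone, but its interval then overlapped that of wild-type forelimb. For wild-type forelimb against forebrain neither viewpoint bin passed the adjusted p here. The log2 ratio was -0.19 for the first bin and -0.22 for the second (adjusted p = 0.32 and 0.44, exact binomial test). The first gave 715 contacts in wild-type forelimb, 838 in the forebrain, 622 in the midhindbrain boundary and 463 in stop-cassette forelimb, or 1.97, 2.26, 1.75 and 1.79. The second gave 400, 508, 413 and 320, or 1.58, 1.84, 1.55 and 1.63.

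Next to the promoter, contacts between the 2 viewpoint bins were fewer than average for adjacent bins. These neighbours met each other in 2340, 2512, 2652 and 2269 read pairs, which was 0.606 (0.582 to 0.631), 0.554 (0.532 to 0.576), 0.566 (0.545 to 0.588) and 0.608 (0.584 to 0.634) of the mean for adjacent bins. Among 419 adjacent pairs of each map this ranked 10th, 8th, 7th and 8th from the lowest. On either side of the border between these 2 bins, adjacent bins met more often than average. The pair 120930001 and 120940001, on the gene body side, stood at 1.43, 1.34, 1.31 and 1.17. The pair 120950001 and 120960001, on the upstream side, stood at 1.14, 1.07, 1.14 and 1.11. The first viewpoint bin skipping over the second to 120960001 gave 0.685, 0.613, 0.654 and 0.761. Of these 4 pairs, the 2 that span the edge at 120950001 were below 1 and the other two above 1, in all 4 maps.

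**Figure D2:**
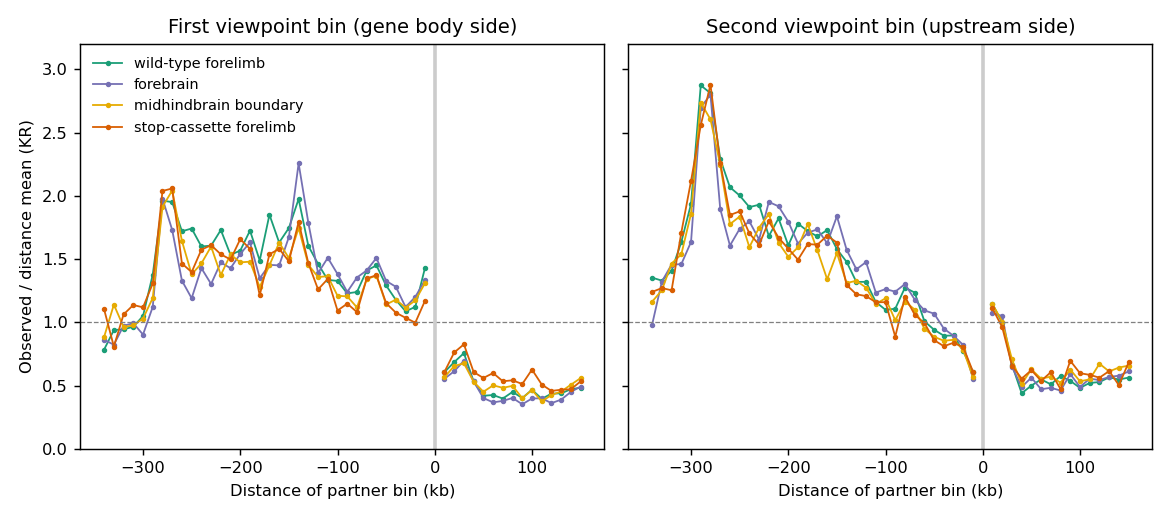
The 2 viewpoint bins shown apart: observed over distance mean of KR signal (vertical axis) against the distance of the partner bin in kb (horizontal axis, negative on the gene body side), with 1 line per merged map. The second bin lies at 2.56 to 2.88 with the bins 280 and 290 kb away and the first bin at 1.73 to 2.06 with the same partners. The first bin is highest with the bin 140 kb away in forebrain (2.26) and wild-type forelimb (1.97), and the contact of the bins with each other lies at 0.554 to 0.608.

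Upstream of the promoter the viewpoint met its surroundings less often than average. The lowest single bin was at 0.429 in wild-type forelimb (120990001), 0.402 in the forebrain (121030001), 0.448 in the midhindbrain boundary (121050001) and 0.493 in stop-cassette forelimb (121030001). These bins lie 40 to 100 kb from the nearest viewpoint bin. An insulation minimum lay at 120980001, 20 kb from the edge of the viewpoint, with scores of -0.71, -0.65, -0.56 and -0.52. The segment from that minimum to the next, 120980001 to 121360000, stood at 0.580 in wild-type forelimb, 0.602 in the forebrain, 0.654 in the midhindbrain boundary and 0.646 in stop-cassette forelimb. Of the 8 segments it had the lowest value in each of the 4 maps, although the interval of the farthest segment overlapped that of the trough in all 4 maps.

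Farther upstream the profile rose above the distance mean again, next to an insulation minimum at 121360001. The bin at 121400001, 450 kb away, was at 1.34 (1.20 to 1.49) in wild-type forelimb, 1.54 (1.40 to 1.69) in the forebrain, 1.62 (1.47 to 1.78) in the midhindbrain boundary and 1.35 (1.19 to 1.52) in stop-cassette forelimb. These rest on 356, 431, 432 and 273 contacts. Both brain maps lay above both forelimb maps, but their intervals overlapped. The bin at 121370001, 420 kb away, had the same order of tissues, at 1.20, 1.39, 1.40 and 1.26. At 121900001, 950 kb away and beside another minimum, the order was another one, with 1.29, 1.37, 1.14 and 1.42. The highest upstream bin of the profile was 121400001 in both brain maps. In the forelimb maps it lay farther out, at 121940001 (1.44) in wild-type and 121920001 (1.46) in stop-cassette forelimb.

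Over whole segments between insulation minima of the wild-type forelimb map, the viewpoint had its highest level with its own segment or with a distant one. Gene names given to segments follow gene order and general knowledge of the locus, since no gene table of mm9 was used. Its own segment, 120670001 to 120980000, stood at 1.346, 1.346, 1.255 and 1.248 from 30292, 30726, 28238 and 20709 contacts. The segment beyond it on the gene body side, 120200001 to 120670000, where Tfcp2l1 lies, stood at 1.14, 1.12, 1.17 and 1.20. The segment 121360001 to 121910000, from Ralb to Tmem177, was near the distance mean at 0.934, 0.974, 1.04 and 1.03.

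Distant segments gave smaller counts. With 121910001 to 122470000, the stretch from Sctr to Marco, the viewpoint had 2725, 2750, 2470 and 3159 contacts, or 0.913, 0.960, 0.879 and 1.12. The segment of En1, 122470001 to 123080000, gave 1666, 1488, 1334 and 1781 contacts, or 0.944, 0.857, 0.838 and 1.03. Both forelimb maps were above both brain maps there. The next segment, 123080001 to 123470000, around Insig2 and Ddx18, rose to 1.249, 1.255, 1.353 and 1.416, although it lies farther away than En1. The last, 123470001 to 124400000, fell to 0.634, 0.639, 0.660 and 0.658. Beyond 1 Mb the level was therefore uneven, and the order of the last 3 segments was the same in all 4 maps.

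**Figure D3:**
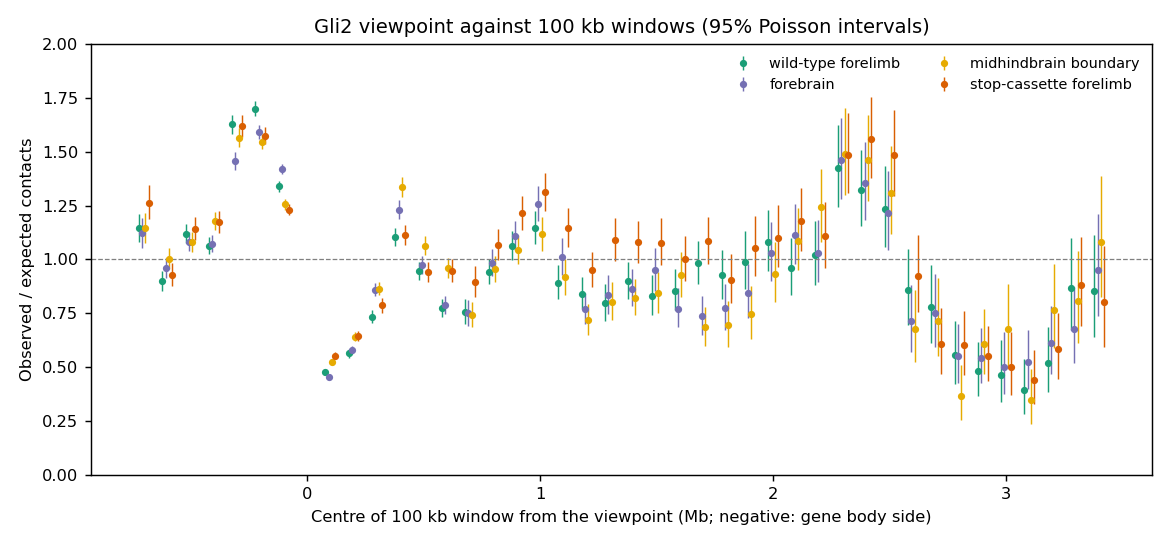
Observed over expected contacts of the Gli2 viewpoint with 100 kb windows (vertical axis) against the centre of the window in Mb from the viewpoint (horizontal axis, negative on the gene body side), with exact Poisson 95% intervals as bars and 1 colour per merged map. Of 41 windows 13 lie above the distance mean in all 4 maps, 15 lie below it in all 4, and 13 differ in side between maps.

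Wild-type forelimb was compared with each brain tissue to ask whether the promoter's contacts differ between limb and brain. The comparisons share the wild-type forelimb map, so their values are not independent. At single bin pairs 30 kb to 1 Mb apart, none of the 339 tested members was called against forebrain (two-sided exact binomial test on the whole map, Benjamini-Hochberg adjusted p under 0.05 and at least 2-fold), against 0.0198% of all bin pairs tested. None was called against midhindbrain boundary either, with 0.0621% of all bin pairs called. At an unadjusted p under 0.05 there were 36 and 49 members (10.6% and 14.5%), against 8.97% and 10.3% of all bin pairs. The median log2 ratio of the members was -0.02 against forebrain and -0.06 against midhindbrain boundary, and that of all bin pairs 0.00 and 0.01.

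A few members passed the adjusted p below 2-fold. Against forebrain, the first viewpoint bin met the bin at 120690001 in 387 wild-type forelimb and 262 forebrain contacts, a log2 ratio of 0.55 (interval 0.32 to 0.78, adjusted p = 0.0019, exact binomial test). It met the bin at 121220001, upstream, in 138 and 223 contacts, a log2 ratio of -0.69 (-1.01 to -0.38, adjusted p = 0.0069). It met the bin at 120770001 in 605 wild-type forelimb contacts, against 490 in forebrain (log2 ratio 0.35, adjusted p = 0.029) and 459 in the midhindbrain boundary (0.35, adjusted p = 0.024), by the same exact test. Against midhindbrain boundary, the second viewpoint bin met the bin at 121310001 in 126 and 203 contacts, a log2 ratio of -0.61 (-0.94 to -0.28, adjusted p = 0.039). In these 5 tests forelimb was higher at the gene body bins and lower at the upstream bins. They were listed because they passed, and those at 120770001 use the same 605 forelimb contacts, so no pattern is read from them. Members passing at any fold numbered 3 and 2 of 339 (0.885% and 0.590%), and the shares of all bin pairs doing so were 0.381% and 0.681%.

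The side share differed between the same maps. It was 0.879 percentage points higher in wild-type forelimb than in forebrain (interval 0.343 to 1.41, two-sided Fisher's exact test adjusted over 140 rows, p = 0.0025). It was 3.45 points higher than in the midhindbrain boundary (2.91 to 3.99, adjusted p = 3.3e-34). Side shares differed at this threshold in 65% and 71.4% of all rows. By size of the difference, the viewpoint ranked 80th of 140 rows against forebrain and 14th against midhindbrain boundary, where the median row differed by 1.08 and 1.27 points. The forebrain difference was thus below that of a usual row of these maps, and the midhindbrain boundary difference above it. The forebrain difference was not past the threshold with contacts up to 300 kb only, or with the first viewpoint bin alone (adjusted p = 0.27 and 0.16).

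Against 100 kb windows, 1 of 41 was called in wild-type forelimb against forebrain (adjusted p under 0.05 and a log2 ratio of at least 0.32 in size), with 2.58% of all rows and windows called, 1.67% of them as higher in forelimb. It was the window at 122600001, in the En1 segment, with 365 contacts in wild-type forelimb and 269 in the forebrain, a log2 ratio of 0.41 (0.18 to 0.65, adjusted p = 0.0049, exact binomial test). Against midhindbrain boundary 3 of 41 were called, with 6.4% of all rows and windows called, 3.81% as higher in forelimb. These were the windows at 122600001 (365 against 236 contacts, log2 ratio 0.52), 122700001 (264 against 174, 0.41) and 122800001 (219 against 145, 0.41), with adjusted p of 0.00022, 0.021 and 0.046. Without KR factors the window at 122800001 had an adjusted p of 0.055 (exact binomial test) and lost its call, while the count stayed at 3. Counted in either direction, calls were about as frequent here as among all rows and windows, so they are not read as a trait of the viewpoint. Both comparisons use the same wild-type forelimb map, so their calls are not independent. All of the called windows lay in the En1 segment and were higher in forelimb. None remained called when the variance was inflated to the spread of all rows, where the adjusted p was at least 0.999.

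The windows with the extreme log2 ratios rested on few contacts and were not called, apart from 122600001, which was also the highest against forebrain. Against forebrain the lowest was 124000001, with 41 and 60 contacts (log2 ratio -0.39). Against midhindbrain boundary the highest was 123700001 (60 and 35 contacts, 0.59) and the lowest 124100001 (49 and 64 contacts, -0.56). Nearer the promoter, the window at 121300001 was lower in forelimb without reaching that size, by a log2 ratio of -0.16 against forebrain (adjusted p = 0.00063) and -0.27 against midhindbrain boundary (adjusted p = 2.0e-11, exact binomial test). With the variance inflated to the spread of all rows, neither passed (adjusted p = 0.764 and 0.156, normal approximation). At any fold, 6 and 13 of 41 windows passed the adjusted p, against 13.8% and 20.1% of all rows and windows.

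No segment reached a log2 ratio of 0.32 in size between wild-type forelimb and a brain tissue, where 1.01% (forebrain) and 3.45% (midhindbrain boundary) of all rows and segments did with an adjusted p under 0.05. Members past the adjusted p at any fold were 3 and 5 of 8, against 34.5% and 44.6% of all rows and segments. With its own segment the viewpoint gave a log2 ratio of 0.00 against forebrain and 0.10 against midhindbrain boundary. The ratio with the trough segment, 120980001 to 121360000, was -0.06 and -0.17. With the En1 segment it was 0.14 (0.04 to 0.24, adjusted p = 0.023) and 0.17 (0.07 to 0.28, adjusted p = 0.0038), by the exact binomial test. Without KR factors it was 0.09 and 0.12 (adjusted p = 0.16 and 0.038, same test). The first viewpoint bin alone gave 0.19 and 0.18 (adjusted p = 0.029 and 0.030), the second 0.07 and 0.15 (0.60 and 0.16). In a normal approximation with the variance inflated to the spread of all rows, the adjusted p was 0.9997 and 0.9989. No other segment passed with that variance either.

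**Figure D4:**
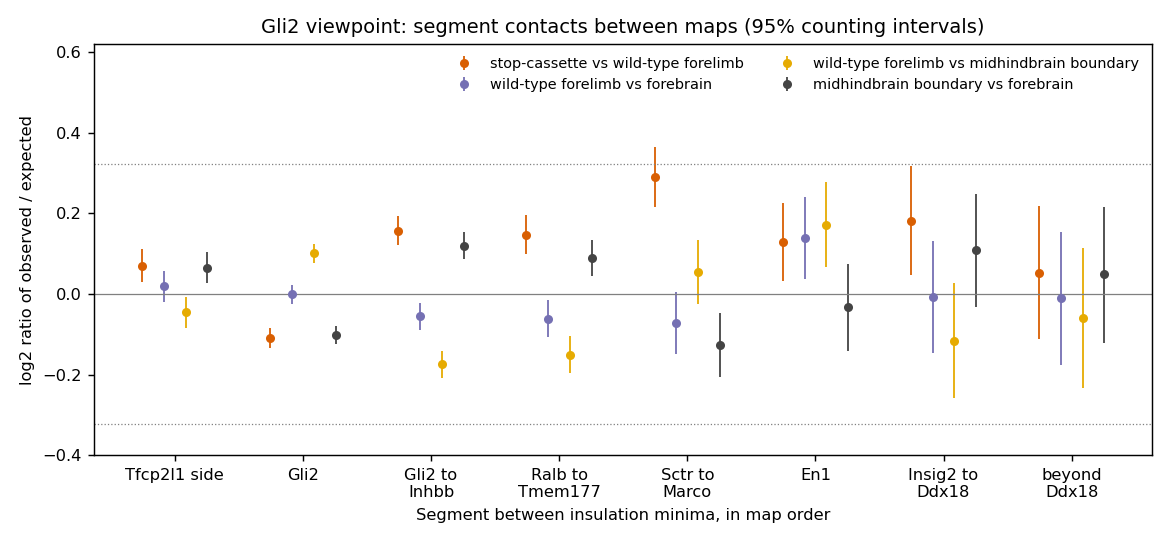
Log2 ratio of observed over expected contacts of the Gli2 viewpoint between maps (vertical axis) for the 8 segments between insulation minima in map order (horizontal axis), with 95% counting intervals as bars and 1 colour per comparison. Dotted lines mark a log2 ratio of 0.32 in either direction. No point lies beyond them, and the largest ratio is 0.29, for stop-cassette over wild-type forelimb in the segment from Sctr to Marco.

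The brain tissues were compared with each other to ask whether contacts of Gli2 differ within the brain. None of 339 bin pairs was called in midhindbrain boundary against forebrain, with 0.0113% of all bin pairs called. At an unadjusted p under 0.05 there were 47 members (13.9%), against 7.21% of all bin pairs, and the median log2 ratio was 0.06, against 0.00 for all. The strongest member was the first viewpoint bin with the bin at 120800001, with 622 and 838 contacts, a log2 ratio of -0.37 (-0.52 to -0.22, adjusted p = 0.0015, exact binomial test). Its neighbour at 120810001 followed, with 667 and 846 contacts (-0.30, adjusted p = 0.038). Both lay inside the gene length of Gli2 and were lower in midhindbrain boundary. These 2 were the members past the adjusted p at any fold, and 0.224% of all bin pairs passed it.

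The side share was 2.57 points lower in midhindbrain boundary than in forebrain (3.11 to 2.03 points lower, Fisher's exact test, adjusted p = 2.4e-19), where 65.7% of all rows differed and the viewpoint ranked 16th of 140. None of 41 windows was called, with 4.05% of all rows and windows called, and none of 8 segments, with 2.92% called. Past the adjusted p at any fold were 8 windows and 5 segments, where 11.6% of all rows and windows and 38.9% of all rows and segments were. The extreme windows were 123900001 (53 and 51 contacts, log2 ratio 0.43) and 124000001 (32 and 60 contacts, -0.58). Neither passed the adjusted p. The window at 120800001 held 11077 and 12797 contacts, a log2 ratio of -0.18 (-0.21 to -0.14, adjusted p = 8.7e-19, exact binomial test), below the size for a call. It alone of the 41 windows passed with the variance inflated to the spread of all rows (adjusted p = 0.00049, normal approximation). The share of all rows and windows passing with that variance is not given, so this is not read as a trait of the viewpoint. With its own segment the viewpoint gave -0.10 (adjusted p = 5.0e-16, exact binomial test) and with the trough segment 0.12 (adjusted p = 4.6e-11). The other segments did not all follow their side. On the gene body side, 120200001 to 120670000 gave 0.06 (adjusted p = 0.0040), higher in the midhindbrain boundary. Upstream, 121360001 to 121910000 gave 0.09 (adjusted p = 0.00053), while 121910001 to 122470000 gave -0.13 (adjusted p = 0.0059), by the same exact test. In a normal approximation with the variance inflated to the spread of all rows, no segment of this comparison passed. The adjusted p was then 0.390 with the viewpoint's own segment and 0.741 with the trough segment.

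Stop-cassette forelimb was compared with wild-type forelimb to ask whether the inserted cassette goes with altered contacts of Gli2. This comparison shares the wild-type forelimb map with those against brain, so its values are not independent of theirs. None of 339 bin pairs was called, with 0.0282% of all bin pairs called, and 47 (13.9%) had an unadjusted p under 0.05, against 9.45% of all. The median log2 ratio of the members was 0.08, and that of all bin pairs 0.01. No member passed the adjusted p at any fold, where 0.0762% of all bin pairs did. The nearest was the first viewpoint bin with 121000001, in the trough, with 290 contacts in the mutant and 296 in wild type (log2 ratio 0.50, 0.26 to 0.73, adjusted p = 0.051, exact binomial test). Its neighbours 121010001 and 120990001 were next, at 0.43 and 0.42. All 3 sit just upstream of the promoter, where wild-type forelimb was at 0.397 to 0.425 and the mutant at 0.534 to 0.599 for the first bin.

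The side share was 4.01 points lower in stop-cassette forelimb (4.60 to 3.42 points lower, Fisher's exact test, adjusted p = 1.1e-39). In this comparison 77.1% of all rows differed, the median row by 1.72 points, and the viewpoint ranked 19th of 140. With its own segment the mutant gave a log2 ratio of -0.11 (-0.13 to -0.08) and with the trough segment 0.16 (0.12 to 0.19). The trough ratio was 0.23 with the first viewpoint bin alone and 0.07 with the second (adjusted p = 7.4e-17 and 0.020, exact binomial test). All 8 segments were below a log2 ratio of 0.32 in size, with 5.54% of all rows and segments called, and 7 of the 8 passed the adjusted p, against 53.8% of all. In a normal approximation with the variance inflated to the spread of all rows, none passed, with an adjusted p of at least 0.710. The largest ratio was 0.29 (0.22 to 0.36), with 121910001 to 122470000, from Sctr to Marco. That segment was called with counts not corrected by KR factors (0.38) and with the second viewpoint bin alone (0.36). The shares of all rows and segments called at those settings are not given here.

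In 100 kb windows, 3 of 41 were called higher in stop-cassette forelimb and none lower, with 8.84% of all rows and windows called in either direction and 5.69% called higher. These were the windows at 122000001 (619 contacts in the mutant and 498 in wild type, log2 ratio 0.36, adjusted p = 0.00046, exact binomial test), 122200001 (470 and 348, 0.45, adjusted p = 0.00014) and 122400001 (395 and 331, 0.38, adjusted p = 0.0041). The viewpoint's share of calls in either direction was below that of all rows and windows. Without KR factors the ratio of the window at 122400001 was 0.3202, just below the threshold of 0.3219, and its call was lost, while the count of called windows was 4. The count fell to 0 when the variance was inflated to the spread of all rows (adjusted p of at least 0.848), and to 1 with 200 kb windows. At any fold, 14 of 41 passed the adjusted p, against 25.2% of all rows and windows. The lowest window was 123600001, with 65 and 76 contacts (-0.36), and was not called.

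Contacts of the viewpoint beyond 1 Mb were more frequent in the mutant map than in any wild-type map, as they were for most rows. Of the viewpoint's contacts at 30 kb or more, 11.7% lay beyond 1 Mb in the mutant, against 8.10% in wild-type forelimb, 7.82% in the forebrain and 7.18% in the midhindbrain boundary. The mutant had the highest such share of the 4 maps in 200 of 210 rows (95.2%), and the median row stood at 12.8%, 10.6%, 10.2% and 9.95% in the same order. Relative to the distance mean of its own map, the viewpoint beyond 1 Mb was at 1.04 (1.02 to 1.07) in the mutant, against 0.908, 0.904 and 0.876. On this scale the mutant was above all 3 wild-type maps in 76 of 210 rows (36.2%). The viewpoint ranked 17th of 210 rows by the excess of the mutant over wild-type forelimb. In 23 of the 41 windows (56.1%) the mutant was above all 3 wild-type maps, against 35.6% of all rows and windows. It was below all of them in 4 windows (9.76%), against 33.2%. These are descriptions with no test, since neighbouring windows and rows share contacts. The mutant map had the fewest libraries and contacts, its 2 libraries have a number block of their own, and whether these had a part in the result was not tested. Both forelimb maps were above both brain maps in 12 windows (29.3%, against 25.5% of all rows and windows) and below both in 7 (17.1%, against 21.5%).

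The shape of the profile was shared between all maps. Over 169 partner bins within 1 Mb and at least 30 kb away, Pearson's r of log2 (observed over distance mean + 1) was 0.916 between stop-cassette and wild-type forelimb and 0.927 between wild-type forelimb and forebrain. It was 0.903 between wild-type forelimb and midhindbrain boundary and 0.916 between the brain maps. The median of all rows was 0.864, 0.916, 0.908 and 0.924. These are descriptions across bins that share a viewpoint and a map, with no test, and the comparisons share maps. The viewpoint ranked 57th, 85th, 117th and 123rd of 210 rows from the highest.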

How the data were processed

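Per the submitters' processing notes, reads were aligned with Bowtie2 2.3.4.1 to mm9 and processed with Juicer 1.7.6. The map names in the labels record HiCUP, a mapping quality of 30 and 10 kb bins. The authors merged the libraries of a group and deposited a raw map of contact counts and a balanced map of KR signal. Per the labels, chromatin was cut with DpnII. With scipy 1.17.1 and numpy 2.4.6 under Python 3.11.15, KR factors were recovered and contacts over expected computed, with exact Poisson intervals. Two-sided exact binomial tests were run on the whole table for bin pairs, and for 20 kb rows against 100 kb windows and segments, with at least 20 counts and a prior count of 0.5 in log2 ratios. They were tested on simulated counts with counting error only. The spread between these maps was wider, so the simulation does not give their error rate here. No edgeR fit was made, since merged maps hold no replicates.

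Named bins were those called, the 3 highest per side within 1 Mb, the windows with the extreme ratios and all segments. Bins and windows past the adjusted p below the fold threshold, and the lowest bins, were added after their values were seen. The viewpoint and the lists were chosen with earlier results of these data known. Intervals cover counting error only and take contacts as independent molecules, which was not checked.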

Additional observations from a re-analysis of the deposited data

How the results depend on the processing

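With 1 merged map per group, recomputing a result without a replicate was not possible. No paired analysis was possible because the deposited maps merge the libraries of a group. Of the counts of calls, side shares and profile correlations recomputed under the alternatives, 77 values were taken as the same. These include counts that differed little, such as 3 called windows with and 4 without KR factors in stop-cassette against wild-type forelimb. Another 7 were weaker, with fewer calls or a side share no longer past the threshold. Calls were gained in 4, 8 correlations moved, and none changed direction.

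With a 1.5-fold instead of a 2-fold threshold, 1 bin pair of the viewpoint was called in wild-type forelimb against forebrain and 1 against midhindbrain boundary. With the variance inflated to the spread of all rows, the calls among 100 kb windows fell to 0 in stop-cassette against wild-type forelimb, to 0 in wild-type forelimb against forebrain and to 0 against midhindbrain boundary. With 200 kb windows, 1 was called in stop-cassette against wild-type forelimb and 1 in wild-type forelimb against midhindbrain boundary, where fewer windows were tested. Segments called in stop-cassette against wild-type forelimb rose from 0 to 1 without KR factors and to 1 with the second viewpoint bin alone. Shares of all bin pairs, rows and windows, or rows and segments called under these alternatives are not given. The counts are therefore not read as a trait of the viewpoint. The side share of wild-type forelimb exceeded that of forebrain by 0.407 points with contacts of 30 to 300 kb and by 0.608 points with the first viewpoint bin alone. The cause of these changes was not tested. Profile correlations from raw counts were 0.942, 0.955, 0.943 and 0.951 for stop-cassette against wild-type forelimb, forelimb against forebrain, forelimb against midhindbrain boundary, and between the brain maps. With 20 kb target bins they were 0.9495, 0.949, 0.942 and 0.946. Depth limits contacts beyond 1 Mb most, where a 100 kb window held as few as 32 contacts of the viewpoint.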
